A study of Mus musculus with 9 samples.

Results

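The muscle regulatory gene Myod1 and 9 further genes of skeletal muscle, Myog, Acta1, Actc1, Tnnt3, Tnnc2, Myh3, Mylpf, Ttn and Des, were followed library by library in embryonic mouse lenses. They were picked by symbol from a table of normalized RNA-seq values, and all 10 were found among its 15820 entries with a symbol (22013 entries in all). They had been chosen because Myod1 is higher in the knockout lenses, so their differences from control lenses are given as a description without a test, and the question was whether the other genes follow Myod1 from one library to the next. The study sequenced whole lenses at E16.5 (E, embryonic day) from 3 genotypes of germline null alleles of Mafg and Mafk, which encode small Maf transcription factors, on an ICR background. Control lenses were Mafg+/-:Mafk+/-, and so carried a null copy of each gene, compound KO lenses were Mafg-/-:Mafk+/-, and double KO lenses were Mafg-/-:Mafk-/-. Each genotype had 3 libraries, and each library was made from 8 pooled lenses, so a value is an average over pooled lenses and every p-value measures the spread between pools. The alleles are null in every tissue of the embryo and not in the lens alone.

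Myod1 and Myog are basic helix-loop-helix transcription factors of the myogenic family. They pair with E proteins (Tcf3, Tcf4 and Tcf12), bind E-box motifs (CANNTG) and turn on the genes of muscle fibers, while Id proteins hold the E proteins away from them. Myod1 acts in committed myoblasts and Myog in cells that differentiate into fibers. The fibers then make the contractile apparatus: sarcomeric actins (Acta1, Actc1), the fast troponin subunits of the thin filament (Tnnt3, Tnnc2), embryonic myosin heavy chain (Myh3) and a fast regulatory light chain (Mylpf) of the thick filament, the giant elastic protein titin (Ttn) and the intermediate filament protein desmin (Des). The lens itself contains no skeletal muscle; the extraocular muscles lie around the eye.

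The promoters of 8 of the 10 genes were found in a RefSeq table on build GRCm38.p6 (Myod1 and Tnnt3 are named only), which is an older build than the mm39 of the expression values. Because these genes moved together across libraries, the 250 bases before the start site are shown for the regulator Myog (chr1:134289754-134290003, plus strand), for Acta1 (chr8:123894776-123895025, minus strand), for Mylpf (chr7:127211358-127211607, plus strand), for Des (chr1:75360042-75360291, plus strand) and for Actc1 (chr2:114052876-114053125, minus strand), with every E-box in capitals.
Myog: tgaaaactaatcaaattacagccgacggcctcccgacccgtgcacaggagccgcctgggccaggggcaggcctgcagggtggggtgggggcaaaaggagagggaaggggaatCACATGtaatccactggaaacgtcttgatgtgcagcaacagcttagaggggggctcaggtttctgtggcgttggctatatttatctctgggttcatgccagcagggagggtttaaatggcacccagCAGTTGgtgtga
Acta1: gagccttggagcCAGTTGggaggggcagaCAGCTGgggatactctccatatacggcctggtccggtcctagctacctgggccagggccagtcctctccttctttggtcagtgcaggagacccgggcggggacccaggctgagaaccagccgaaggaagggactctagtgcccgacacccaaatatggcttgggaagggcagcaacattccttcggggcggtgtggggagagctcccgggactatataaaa
Mylpf: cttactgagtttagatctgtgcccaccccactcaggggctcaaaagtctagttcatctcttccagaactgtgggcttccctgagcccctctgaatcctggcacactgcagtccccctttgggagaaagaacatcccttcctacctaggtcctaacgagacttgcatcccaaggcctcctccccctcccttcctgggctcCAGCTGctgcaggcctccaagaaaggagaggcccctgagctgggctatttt
Des: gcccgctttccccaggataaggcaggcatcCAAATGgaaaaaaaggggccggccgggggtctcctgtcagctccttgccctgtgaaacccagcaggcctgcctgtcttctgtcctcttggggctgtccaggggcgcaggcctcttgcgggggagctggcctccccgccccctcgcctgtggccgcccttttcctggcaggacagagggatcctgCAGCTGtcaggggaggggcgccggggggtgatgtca
Actc1: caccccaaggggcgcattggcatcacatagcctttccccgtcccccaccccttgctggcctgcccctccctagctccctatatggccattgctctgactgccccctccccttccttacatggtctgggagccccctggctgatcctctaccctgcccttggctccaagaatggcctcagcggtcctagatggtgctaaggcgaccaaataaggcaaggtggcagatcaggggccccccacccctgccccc
An E-box, which reads as CANNTG on both strands, was in 7 of the 8 promoters (Actc1 had none), against 66.2% of all 32851 promoters in that table. Its form CAGCTG, itself a CANNTG match, was in 3 of 8 (Acta1, Mylpf and Des), against 13.0% of all. TATAAA, searched on both strands, was in Acta1 and Myh3, against 12.4% of all, and the core TGCTGA of the Maf recognition element was in Ttn alone, against 16.1% of all. These matches describe letters within 250 bases and are no evidence of binding.

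The values are normalized CPM (read counts scaled library by library) given to 1 decimal place, so 0.1 is the smallest step. Their totals still differ between libraries and depend on that scaling. The depth of the libraries is not known from the values, and no counting interval can be given. The targeted genes matched the labels: Mafg was 112.9 to 134.5 in the control libraries and 10.1 to 26.2 in the 6 Mafg-null libraries, and Mafk was 0.0 to 0.6 in the double KO libraries against 4.3 to 6.3 in the others. The 14 lens genes found of a list of 16 summed to 109363 to 127426 in control libraries. Compound KO replicate 1 stood apart from every other library. Its lens genes summed to 39536, against 77665 to 116600 in the other Mafg-null libraries, and its values summed to 728036, against 977149 to 1131184 elsewhere. It was the highest of the 9 libraries for 4888 of 14578 entries (33.5%, ties not counted), so results below are given with and without it.

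Myod1 (chromosome 7, 46025870 to 46028526, GRCm39, plus strand) was near 0 in the control libraries, at 0.2, 0.1 and 0.0. It was 2.6, 6.2 and 7.8 in the compound KO libraries and 9.2, 8.3 and 6.2 in the double KO libraries. Every Mafg-null library lay above every control library, both Mafg-null genotypes overlapped, and the lowest of the 6 was compound KO replicate 1. The means were 0.1 ± 0.1 in control, 5.53 ± 2.66 in compound KO and 7.9 ± 1.54 in double KO lenses (SD, n = 3 each). On the scale of log2(value + 1), used for every log2 difference here, double KO exceeded control by 3.01 (SE 0.17) and compound KO exceeded control by 2.48 (SE 0.35), or by 2.86 (SE 0.16) without compound KO replicate 1. In such bulk samples a change in the number of cells that hold a transcript cannot be told apart from a change in RNA per cell.

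Myog (chromosome 1, 134217707 to 134220287, plus strand), which marks differentiating myocytes, gave another order. It was 0.2, 0.1 and 0.1 in the control libraries, 7.8, 0.7 and 0.2 in the compound KO libraries and 1.2, 0.5 and 0.5 in the double KO libraries. Its highest library was compound KO replicate 1, the Mafg-null library in which Myod1 was lowest. The lowest Mafg-null library of Myog, compound KO replicate 3 at 0.2, equalled the highest control. In that same library Myod1 was at 7.8, its highest level of the compound KO libraries. Myog was at least 1 in only 1 library of either genotype, so it did not pass the filter for the comparisons with control.

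The sarcomeric actins were the first structural pair. Acta1, the skeletal alpha actin (chromosome 8, 124618501 to 124623661, minus strand), was 1.2, 1.9 and 1.7 in control, 88.7, 9.9 and 4.7 in compound KO and 19.8, 6.6 and 7.4 in double KO libraries. Actc1, the alpha actin of heart and of embryonic skeletal muscle, was 0.2, 0.6 and 0.3 in control, 61.5, 5.2 and 1.9 in compound KO and 14.0, 2.8 and 3.4 in double KO libraries. For both actins every Mafg-null library was above every control, and compound KO replicate 1 and then double KO replicate 1 were the highest.

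The thin filament troponins followed the actins. Tnnt3, the fast troponin T that anchors the complex to tropomyosin, was 0.1, 0.3 and 0.2 in control, 20.4, 3.2 and 0.6 in compound KO and 5.3, 1.6 and 1.8 in double KO libraries. Tnnc2, the fast troponin C that binds calcium, was 0.3, 0.0 and 0.0 in control, 15.4, 2.0 and 0.7 in compound KO and 4.0, 1.2 and 1.3 in double KO libraries. Neither gene overlapped with control in any Mafg-null library, and compound KO replicate 3 was the lowest of the 6 for both.

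Among thick filament genes, Myh3 had the widest range. Myh3 was 0.1, 0.3 and 1.3 in control, 116.4, 3.4 and 2.3 in compound KO and 21.6, 3.6 and 3.6 in double KO libraries. Mylpf, the phosphorylatable light chain of fast fibers, was 0.9, 1.1 and 1.7 in control, 49.5, 5.0 and 3.5 in compound KO and 13.4, 3.7 and 4.2 in double KO libraries. The same libraries, compound KO replicate 1 and double KO replicate 1, stood highest for both, and control and Mafg-null libraries did not overlap.

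Ttn and Des, which hold the sarcomere and its fibrils in place, were also highest in compound KO replicate 1 and next highest in double KO replicate 1. Ttn was 0.4, 0.0 and 0.5 in control, 10.5, 1.8 and 0.8 in compound KO and 7.3, 1.9 and 1.3 in double KO libraries. Des was 0.4, 0.3 and 0.6 in control, 21.0, 2.3 and 0.9 in compound KO and 5.9, 1.2 and 1.6 in double KO libraries. All 8 structural genes were highest in compound KO replicate 1, next highest in double KO replicate 1 and, among Mafg-null libraries, lowest in compound KO replicate 3. Myod1 was the single gene of the 10 whose lowest Mafg-null library was compound KO replicate 1.

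**Figure D1:**
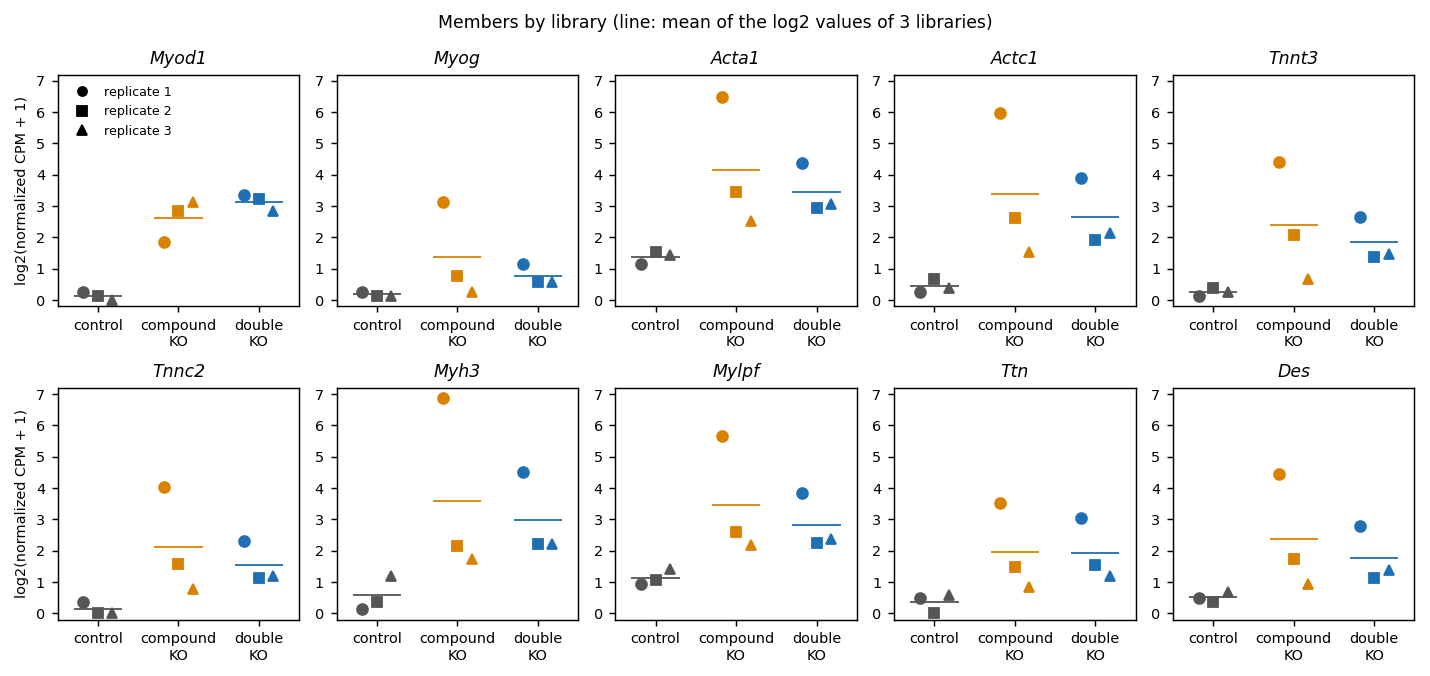
Normalized CPM of the 10 genes on a log2(value + 1) axis, by genotype, with a symbol for each of 3 libraries and a line at the mean of the log2 values. Compound KO replicate 1 (orange circle) is the top point for Myog and all 8 structural genes and the lowest Mafg-null point for Myod1.

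Set against control lenses, 9 of the 10 genes had every Mafg-null library above every control library, Myog being the exception, where 2.68% of 14578 entries did so. All 10 had every double KO library above every control (7.78% of the entries tested), and 9 had every compound KO library above (12.2%). Since the genes were chosen for this difference, nothing is read from these shares. Myog did not pass the filter on low values against control, and most of the other 9 had control values under 1 and entered the fit through their Mafg-null libraries. The structural genes were higher in double KO than in control lenses by 1.25 (SE 0.45, Des) to 2.40 (SE 0.70, Myh3) on the log2 scale, and by 0.74 (Des) to 1.63 (Acta1 and Myh3) once double KO replicate 1 was left out. Myod1 kept a difference of at least 2.90 whichever of the 6 libraries was left out.

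Between compound KO and control lenses the structural genes were higher by 1.60 (SE 0.70, Ttn) to 3.01 (SE 1.41, Myh3), with standard errors far wider than the 0.35 of Myod1. Without compound KO replicate 1, 5 of the 10 genes passed the filter, and Acta1 was higher than control by 1.61 (SE 0.33), Actc1 by 1.64 (SE 0.37), Myh3 by 1.36 (SE 0.37) and Mylpf by 1.23 (SE 0.23).

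How double KO and compound KO lenses differed was not part of the choice and could be tested. Myod1 differed by 0.53 (SE 0.37, 95% interval -0.38 to 1.44, adjusted p = 0.665, limma), which is within the spread between libraries. The other 9 genes were lower in double KO by 0.02 (Ttn) to 0.72 (Actc1), with adjusted p of 0.747 to 0.993 from limma and intervals as wide as -4.38 to 3.16 (Myh3). None of the 10 was called, by at least a 1.5-fold change with an adjusted p of at most 0.05 or with the same unadjusted p, against 0.0139% and 3.06% of 14402 entries, and all 10 overlapped between these genotypes. Without compound KO replicate 1 the 8 structural genes turned to higher values in double KO lenses, by 0.38 (Tnnc2) to 1.04 (Myh3), again with no call (adjusted p at least 0.839, limma, against 0.0425% of entries called, and 2.25% with the unadjusted p). The difference of Myod1 was then 0.15 (SE 0.20, 95% interval -0.39 to 0.68, adjusted p = 0.89, limma). These intervals leave room for changes of either direction, and no difference between the Mafg-null genotypes was detectable at this spread.

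**Figure D2:**
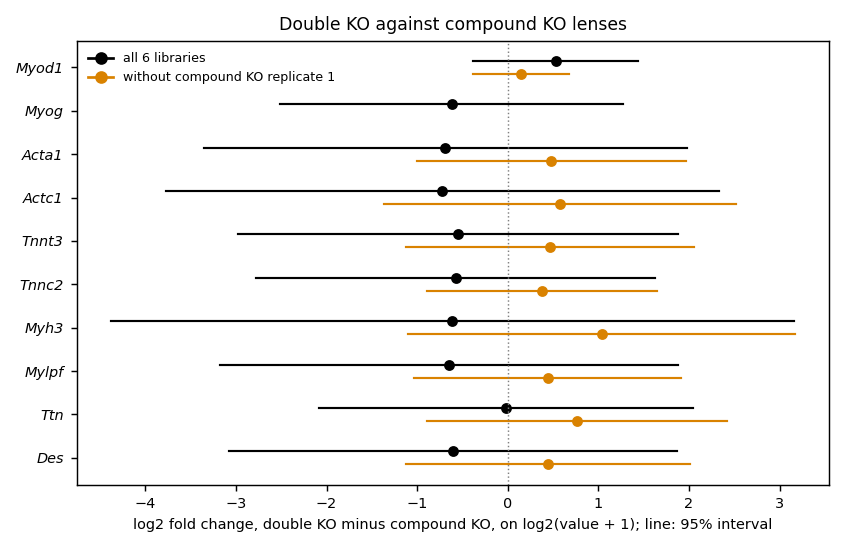
Log2 fold change of each gene between double KO and compound KO lenses (points) with 95% intervals (lines), with all 6 libraries in black and without compound KO replicate 1 in orange; Myog passed the filter only with all 6. Every interval crosses 0, and the 8 structural genes change sign when that library is left out while Myod1 moves from 0.53 to 0.15.

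The course of Myod1 across the 6 Mafg-null libraries was then set against each of the other 9 genes, on log2(value + 1). Controls were left out, since they form a cluster of their own near 0. Pearson's r was below 0 for all 9 genes, from -0.862 (Myog) to -0.508 (Ttn), with a median of -0.744. None passed the exact permutation test (two-sided p of 0.114 to 0.311, and 0.169 to 0.311 after Benjamini-Hochberg adjustment over the 9 relations). Spearman's rho was weaker, at -0.348 to -0.058 (adjusted exact permutation p of 0.764 to 0.933). The sign depended on which libraries were kept. Without compound KO replicate 1, r was 0.177 (Tnnt3) to 0.61 (Myh3) for the 9 genes. Leaving out both libraries farthest from the median of Myod1, compound KO replicate 1 and double KO replicate 1, gave negative values again, -0.842 to -0.123. In the compound KO libraries Myod1 ran from replicate 3 down to replicate 1, the reverse of every structural gene, whereas in the double KO libraries replicate 1 was highest for all 10 genes. A common course of Myod1 and the structural genes was thus not found in these 6 libraries.

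Myog, in contrast, kept step with the structural genes. This comparison was added after the values were seen. Over the same 6 libraries its r with the 8 structural genes was 0.868 (Ttn) to 0.984 (Acta1), with adjusted exact permutation p of 0.0037 to 0.00833 over the 8 relations, and Spearman's rho was 0.824 to 0.986 (adjusted exact permutation p of 0.00741 to 0.05). Without compound KO replicate 1 r was 0.897 to 0.989, and without both libraries farthest from the median it was 0.852 to 0.988. Among the structural genes themselves the 28 pairs had r of 0.93 to 1.0 (median 0.988), and 0.829 to 0.999 without compound KO replicate 1. All these values share the same libraries and their composition, and Myog in 4 of the 6 libraries was at 0.7 or less. The 8 structural genes moved together, so their relations with Myog are not separate findings. As the comparison followed from the values it uses, its p-values are given as a description.

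**Figure D3:**
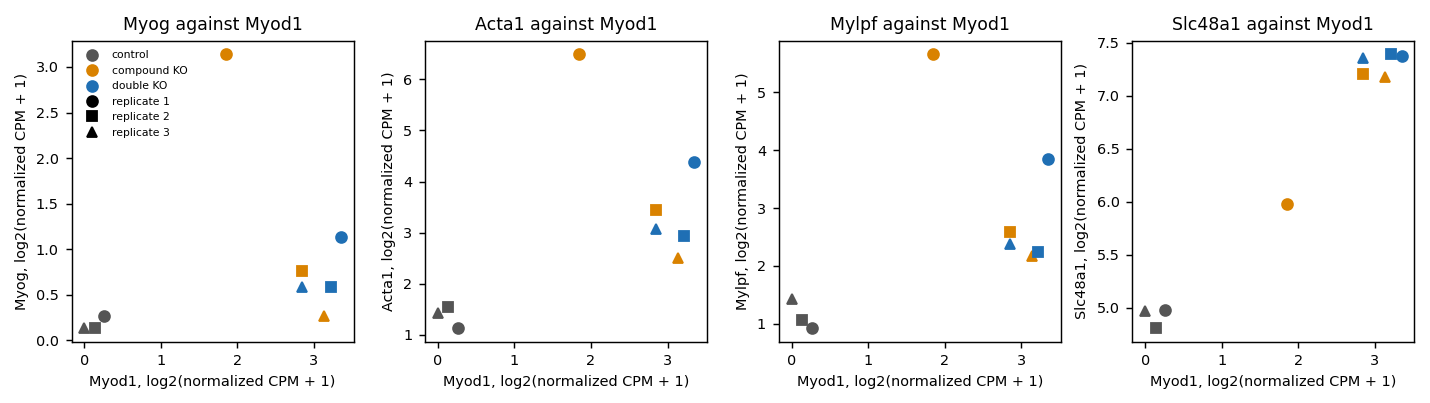
Myog, Acta1, Mylpf and the heme transporter gene Slc48a1 against Myod1 in 9 libraries, all as log2(normalized CPM + 1), with color for genotype and a symbol for the replicate. Compound KO replicate 1 (orange circle) is far above the others for Myog, Acta1 and Mylpf at the lowest Mafg-null Myod1 value, and for Slc48a1 it lies between the controls and the other Mafg-null libraries.

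The genes nearest to Myod1 in pattern were not muscle genes. Over the 9 libraries, 14568 entries were ranked by Pearson's r with Myod1 on log2(value + 1), as a measure of likeness only. The 8 highest were Slc48a1 (0.988), which encodes a heme transporter, Ptafr (0.988), the receptor for platelet-activating factor, the predicted gene Gm5776 (0.987), the gamma-glutamyltransferase gene Ggt5 (0.983), the Wnt coactivator Pygo2 (0.976), the protocadherin Pcdh20 (0.967) and the transcription factors Klf9 (0.963) and Atf5 (0.959). None of the 8 was on a muscle list. Slc48a1 was 30.5, 27.1 and 30.3 in control, 62.2, 146.1 and 143.9 in compound KO and 164.5, 166.5 and 163.1 in double KO libraries. Ptafr was 0.4, 0.3 and 0.4, then 2.0, 6.4 and 6.5, then 8.1, 7.8 and 7.8 in the same order. Since the ranking used all 9 libraries, the lower level of these genes in compound KO replicate 1 follows from the choice. Between 971 (Ttn) and 3891 (Myog) other genes were more like Myod1 than the 9 muscle genes were.

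The same ranking against the mean of the 8 structural genes gave Myl1 (0.997), Myh8 (0.994), Dlk1 (0.993), Myl4 (0.989), Stil (0.989), Ckm (0.988), Srl (0.98) and Rfc5 (0.979). Of these, 5 were on the muscle lists: the myosin light chains Myl1 and Myl4, perinatal myosin heavy chain Myh8, muscle creatine kinase Ckm and the sarcoplasmic reticulum protein Srl. Dlk1 encodes a Notch ligand family protein of embryonic mesenchyme and muscle, Stil a centriole protein and Rfc5 a subunit of the clamp loader of DNA replication. Myh8 was 0.0, 0.0 and 0.1 in control, 30.2, 3.1 and 0.6 in compound KO and 5.6, 1.3 and 1.6 in double KO libraries, and Ckm was 0.0, 0.2 and 0.5, then 30.2, 3.9 and 1.3, then 5.8, 1.3 and 2.0. Both were highest in compound KO replicate 1 and next highest in double KO replicate 1.

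Markers of several other tissues were high in compound KO replicate 1 together with the structural genes, and others were not. In compound KO replicate 1 the structural genes were 8.08 (Ttn) to 40.8 (Myh3) times the mean of the other compound KO libraries, and Myog was 17.3 times, whereas Myod1 was 0.371 times. Of lists of genes for other cell types, the 10 mesenchyme and fibroblast genes had a median ratio of 14.7 (0.56 to 64.4) and the 6 pigment cell genes 19.5 (0.92 to 49.3). The median was 29.1 (13.35 to 70.4) for the 4 genes of surface and corneal epithelium and 4.40 (3.06 to 8.05) for the 8 neural retina genes. Below 1 were Pdgfra of the mesenchyme list and Mitf of the pigment list. The 14 lens genes had a median ratio of 0.46 (0.34 to 1.13), and the ratio of Myod1 lay within that range. The 9 endothelial genes had a median ratio of 1.09 (0.70 to 5.03). The 8 erythroid genes had one of 0.538 (0.218 to 0.667), a range that also holds the ratio of Myod1. The erythroid genes summed to 1171.3 to 1640.2 in control, 1426.2, 2060.0 and 2839.3 in compound KO and 2340.1, 3879.1 and 2979.1 in double KO libraries. Like Myod1, this sum was lowest in replicate 1 and highest in replicate 3 among compound KO libraries, and every double KO library was above every control. Unlike Myod1, it lay within the control range in compound KO replicate 1. Among double KO libraries it was lowest in replicate 1, in which Myod1 was highest. The part of blood cells in the level of Myod1 was not tested.

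The summed level of the mesenchyme list was 178.7 to 214.3 in control, 2304.5, 271.1 and 195.6 in compound KO and 363.0, 196.4 and 282.9 in double KO libraries. Most of the control sum was Pdgfra (156.3 to 172.2), which was lowest in compound KO replicate 1 (72.0). The other 9 genes, a split made after the values were seen, summed to 22.4, 17.3 and 50.6 in control, 2232.5, 147.9 and 60.9 in compound KO and 223.3, 23.0 and 133.5 in double KO libraries, so that compound KO replicate 1 and double KO replicate 1 were again highest. The neural retina list summed to 19.2 to 71.4 in control, to 522.2, 168.3 and 82.9 in compound KO and to 108.8, 26.6 and 52.8 in double KO libraries. The pigment cell list was 30.6 to 45.1 in control, 708.5 in compound KO replicate 1 and 29.0 to 56.1 in the other Mafg-null libraries, and the surface epithelium list was 2.1 to 4.1, 298.6 and 3.5 to 10.2 in the same way. At 0 in a control library were 1 mesenchyme, 1 retina and 2 pigment genes, and none was at 0 throughout. The part of tissue from around the lens in the levels of the structural genes was not tested. In compound KO replicate 3 the 9 mesenchyme genes (60.9), the retina list (82.9) and the surface epithelium list (5.4) were above every control. In double KO replicate 2 none of the 4 list sums exceeded its highest control, although single genes such as Prrx1 did (1.4 against at most 0.7). All 8 structural genes were above their controls there, Acta1 at 6.6 against 1.9 and Myh3 at 3.6 against 1.3. The sums follow their most abundant genes, and the meaning of these differences was not tested.

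**Figure D4:**
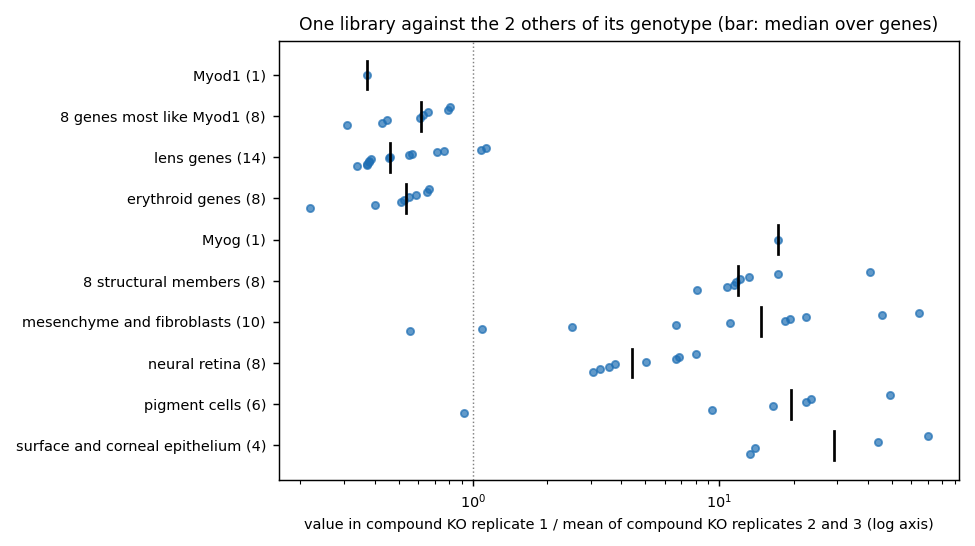
Value in compound KO replicate 1 divided by the mean of compound KO replicates 2 and 3, on a log axis, with a point for each gene, a bar at the median of each group and the number of genes in brackets. Myod1 (0.371) lies to the left of 1, as do most lens genes (median 0.46), the erythroid genes (median 0.538) and the genes most like it. Myog (17.3) and the 8 structural genes (8.08 to 40.8) lie to the right, as do most genes of mesenchyme, retina, pigment cells and surface epithelium.

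Smooth and cardiac muscle genes bear on the actins and desmin, which those tissues share. The 7 smooth muscle genes found of 9 summed to 30.7 to 35.9 in control, 108.7, 42.2 and 40.3 in compound KO and 43.9, 33.5 and 49.0 in double KO libraries. Of these 7, 2 had every Mafg-null library above every control, as did 2.68% of all entries. They were Acta2 (at least 4.7 against at most 4.3) and Tagln (at least 1.6 against at most 1.3). The 2 cardiac genes found of 8 summed to 0.7 to 0.9 in control, 3.8 in compound KO replicate 1 and at most 1.1 in the other Mafg-null libraries. Outside compound KO replicate 1, in which Actc1 was 61.5, the cardiac sum stayed near the control level. Only 2 genes near the floor make up this sum, and the source of Actc1 was not tested.

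Of the wider muscle program, 69 of 112 further genes in 9 lists of muscle biology were in the table. None was called between double KO and control among the 51 tested (limma, adjusted p), where 0.361% of all entries were. With the unadjusted p 8 were higher and 1 lower, against 1.59% and 1.24% of all entries. Of those 8, all but Srl had control values under 1 and entered the fit through their double KO libraries, so nothing is read from this count. The higher ones, named after their values were seen, were Ckm, Srl, the myosins Myh8, Myl1 and Myl4 and the troponins Tnni2, Tnnt1 and Tnnt2, and the lower one was Actn2. The median difference over the 51 was 0.04, against 0.01 over all entries tested. Between compound KO and control 0 of 53 and 0.0% of all entries were called with the adjusted p, and 3 were higher (Ckm, Mdfi and Tnni2) and 3 lower (Actn2, Eno3 and Eya1) with the unadjusted p (3.81% and 1.53% of all entries), with a median of 0.18 against 0.02. Without compound KO replicate 1, 0 of 47 were called with the adjusted p (0.0926% of all entries). With the unadjusted p 5 were then higher (Ckm, Mdfi, Myl1, Myl4 and Tnnt1) and 2 lower, where 2.6% and 1.08% of all entries were, 3.68% together (median -0.06, against 0.01). With and without that library, all the higher genes but Mdfi had control values under 1 and entered the fit through their compound KO libraries. Nothing is read from these counts. Between double KO and compound KO 0 of 61 were called with the adjusted p and Tcf4 was lower with the unadjusted p, as were 2.2% of entries with compound KO replicate 1 and 1.4% without it.

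The genes of the lists were also sorted by their level in control lenses. In 27 of the 69 genes the control mean was under 1, and 23 of these 27 were highest in compound KO replicate 1, against 43 of all 69. The share was 33.5% among entries that reached 1 in at least 2 libraries, at any control level, which is an unlike set. Genes this low in control can be in the table through a library in which they are high, so nothing is read from this count. Each of the 9 thick filament genes was highest in compound KO replicate 1, with a median ratio of 6.18 to the other compound KO libraries. Myl1, the fast essential light chain, was 0.3, 0.3 and 0.5 in control, 23.3, 2.7 and 1.4 in compound KO and 8.0, 2.6 and 2.1 in double KO libraries. Of the 9 further thin filament genes, 6 were highest there, and of the 9 Z disc genes, 6. Ldb3, a Z disc scaffold, was 0.3, 0.1 and 0.6 in control, 8.8, 1.3 and 0.6 in compound KO and 1.9, 0.9 and 0.6 in double KO libraries, so its groups overlapped.

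Other genes of the lists were well expressed in control lenses, and their courses differed. In 20 of the 69 the control mean was at least 10. Of these 20, 2, Actn2 and Eno3, were lower in every Mafg-null library than in every control, as were 4.27% of all entries. Tpm1 and Id3 were instead higher in every Mafg-null library than in every control. Tpm1, a tropomyosin, was 35.4, 31.7 and 30.9 in control, 64.6, 43.6 and 42.0 in compound KO and 40.3, 48.5 and 49.9 in double KO libraries. Over all 69 genes 14 were higher in this way, against 2.68% of all entries. Many genes of the lists are low in control and can be in the table through a library in which they are high, so nothing is read from this count. Actn2, the sarcomeric alpha-actinin, was 85.2, 119.2 and 81.5 in control, 34.8, 36.0 and 32.2 in compound KO and 43.1, 37.5 and 50.4 in double KO libraries. Eno3, the muscle form of enolase, was 106.5, 118.9 and 116.1 in control, 47.1, 83.3 and 82.5 in compound KO and 73.0, 74.3 and 90.2 in double KO libraries. Pgam2, the muscle phosphoglycerate mutase, was 456.2 to 663.1 in control and, like the lens genes, lowest in compound KO replicate 1 (171.9), with 460.0 to 581.2 in the other Mafg-null libraries. Chrng, the fetal gamma subunit of the acetylcholine receptor, was 22.6 to 47.5 in control and 12.5 to 34.9 in Mafg-null libraries, which overlapped.

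**Figure D5:**
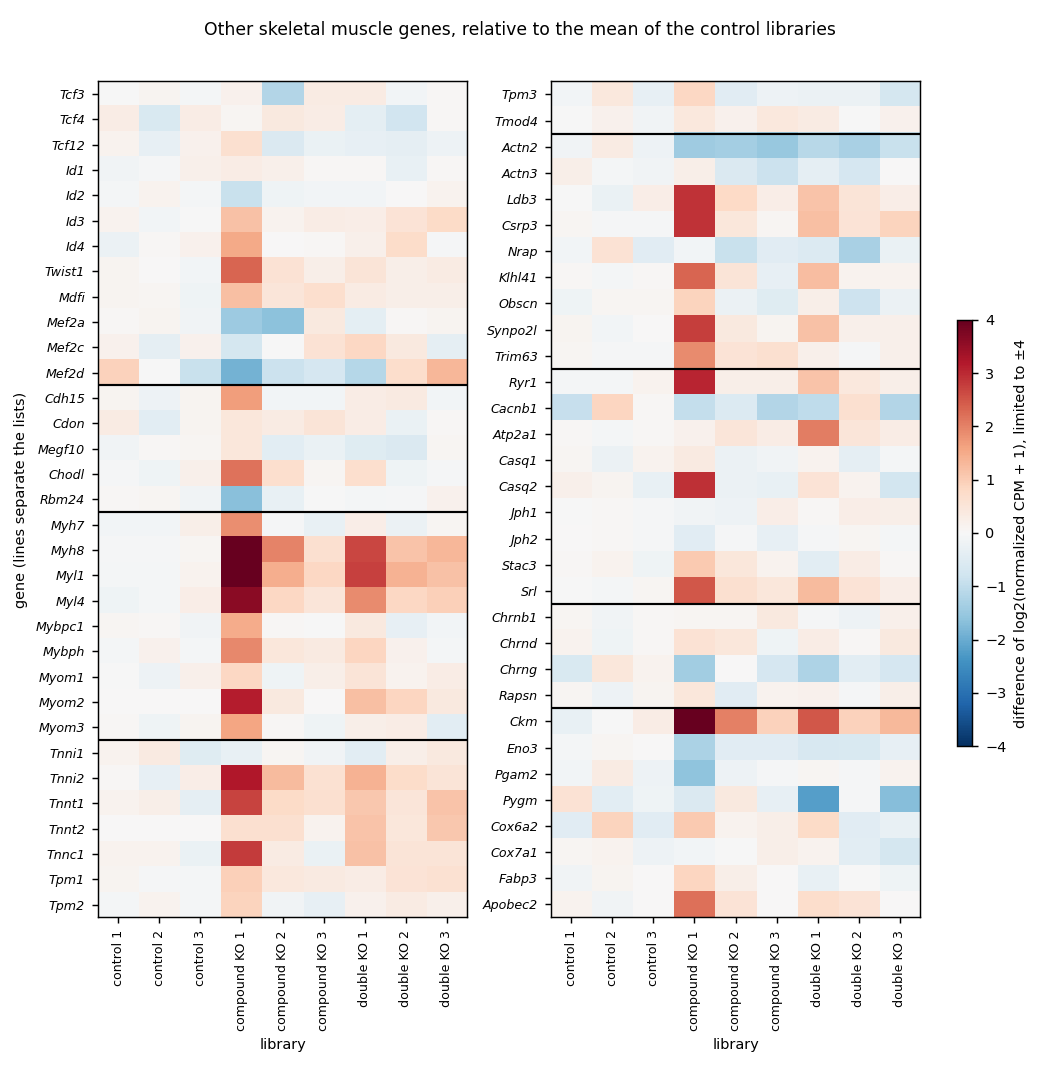
Further muscle genes in rows, in the order of 8 lists (the list of upstream factors is not drawn), and the 9 libraries in columns, colored by the difference of log2(normalized CPM + 1) from the mean of the control libraries, with the color scale limited at its ends. The darkest red runs down compound KO replicate 1, with a paler column at double KO replicate 1, and Actn2 is blue in all 6 Mafg-null libraries.

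Regulators that act before Myod1 were little represented. Of the 11 upstream and myogenic factors listed, 4 were in the table, and Pax3, Pax7, Myf5 and Myf6 were not analysed here. Cdh15, the cadherin of myoblasts and satellite cells, was 0.2 to 0.5 in control, 3.4 in compound KO replicate 1 and 0.3 to 0.8 in the other Mafg-null libraries, which overlapped with control.

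The E proteins that pair with Myod1 were expressed in every library, and their groups overlapped. Tcf3 was 51.2 to 57.8 in control and 23.4 to 67.7 in Mafg-null libraries, Tcf4 was 25.0 to 48.0 and 22.5 to 50.9, and Tcf12 was 49.1 to 69.9 and 40.6 to 97.5. The inhibitors were also present. Id2 was 154.2 to 179.8 in control and 86.8 to 180.5 in Mafg-null libraries. Id1 was 28.0 to 36.2 and 25.5 to 38.9, and Id4 was 2.5 to 3.7 and 3.0 to 10.8. Id3 was 29.9, 25.2 and 26.7 in control, 62.9, 30.4 and 33.5 in compound KO and 33.1, 40.4 and 47.3 in double KO libraries, so every Mafg-null library was above every control. The same held for Mdfi, an inhibitor of myogenic factors, at 1.7 to 2.3 in control and 2.6 to 6.1 in Mafg-null libraries. It also held for Twist1, a mesenchymal factor, at 0.1 to 0.3 and 0.4 to 5.0, ranges separated by the smallest step of the values. These are 3 of the 12 genes of this list, against 2.68% of the entries that reached 1 in at least 2 libraries. Twist1 reached 1 in compound KO replicate 1 alone and is not among those entries, so nothing is read from this count. These members of the list were named after their values were seen. Of the 11 partners and inhibitors tested, none was called with the adjusted p in either comparison with control (limma). With the unadjusted p 0 were called for double KO, against 2.83% of all entries, and 1 for compound KO (Mdfi), against 5.34%.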

How the data were processed

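RNA of E16.5 mouse lenses was sequenced in 9 libraries, 3 of each genotype, each from 8 pooled lenses. Per the labels and methods, the authors made strand-specific paired-end libraries, used HISAT2 for alignment to mm39 and StringTie for transcript counts, and dropped weakly expressed entries in edgeR. The submitters' processing notes also name Trimmomatic and Cufflinks, and versions are not given in the sources used here. The deposited signal is a normalized CPM per gene, rounded to 1 decimal place, whose library totals are 728036 to 1131184 with a geometric mean of 1000012, so whole reads could not be recovered and depth is unknown.

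Groups were taken from the genotype labels. Values were analysed as log2(value + 1) in limma 3.58.1 (R 4.3.3, eBayes with trend), 1 fit per pair of genotypes. Entries entered a fit if they had a symbol and reached 1 in 2 or more of its 6 libraries. An entry was called where it changed at least 1.5-fold with p, adjusted over all entries by Benjamini and Hochberg, no higher than 0.05. The fit was tested on simulated data. Relations across libraries used exact permutation of the pairings (SciPy 1.17.1), in NumPy 2.4.6, pandas 2.3.3 and Python 3.11.15; figures used matplotlib 3.10.9. With 3 libraries against 3, an exact permutation test of a single value cannot give a p below 0.1, so limma was used for every comparison of groups.

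The 10 genes and all lists were chosen with earlier results of these data known. The text names the 10 genes, the 8 genes most like Myod1 and the 8 most like the mean of the structural genes, up to 4 genes with the highest mean in each list with named regulators, Mafg, Mafk and the 3 nearest protein-coding neighbours of Myod1 on each side. Alternatives were other scalings, filters and pseudocounts, a fit of all 9 libraries, a replicate block, summed entries of a symbol and leaving out each library in turn. Replicate numbers did not pair the libraries (correlations of same-numbered deviations -0.106 to 0.216), so the fits have no block. Gene positions are from the GENCODE annotation of GRCm39.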

Additional observations from a re-analysis of the deposited data

How the results depend on the processing

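Myog did not pass the filter against control and has no value there. For the other 9 genes, all 118 values between double KO and control and all 110 between compound KO and control kept their direction under the alternatives that could be fitted. Of 119 values of the 9 genes other than Myod1 between double KO and compound KO, 11 changed sign and none became a call. Myod1 kept its direction under every alternative without a call, at 0.15 to 0.79 with 1 library left out. Leaving out 1 library in turn gave ranges of -1.51 to 0.48 for Acta1, -1.64 to 0.57 for Actc1, -1.41 to 0.47 for Tnnt3, -1.26 to 0.38 for Tnnc2, -1.54 to 1.04 for Myh3, -1.30 to 0.44 for Mylpf, -0.58 to 0.76 for Ttn (0.064 with a pseudocount of 0.1) and -1.32 to 0.44 for Des, the highest of each being the value without compound KO replicate 1. The median r of Myod1 with the 9 other genes was -0.974 to 0.363, with 1 library left out in turn, and above 0 where that library was left out.

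Over all entries, 51 were called between double KO and control, 21 in a fit of all 9 libraries, 10 with the replicate block and 22 to 47 with 1 library left out. Between compound KO and control 0 were called, 2 in a fit of all 9 libraries and 0 to 13 with 1 left out. Between double KO and compound KO 2 were called, 5 in a fit of all 9 libraries, 0 with the replicate block, 0 with a minimum of 1 in every library, 1 with a pseudocount of 0.1 and 1 to 6 with 1 left out. The causes were not tested. The replicate numbers are labels that do not pair the libraries, and the block changed no call of the 10 genes.

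Most control values of the 10 genes lie below 1 and are rounded to 0.1, so the size of their fold changes depends on the pseudocount, and 3 libraries a genotype, 1 of which stands apart, leave wide intervals.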

Other observations

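The genes around Myod1 on chromosome 7 were measured in the same libraries. Kcnc1, a voltage-gated potassium channel gene that starts 17148 bases after the end of Myod1, was 2.5, 2.5 and 2.7 in control, 8.5, 3.7 and 4.9 in compound KO and 4.3, 3.1 and 2.8 in double KO libraries. All 6 Mafg-null libraries lay above the controls, as in 2.68% of entries, by 0.1 at the closest, and compound KO replicate 1 was highest, where Myod1 was lowest of the 6. Sergef, the next gene, was 3.1, 4.1 and 3.6 in control and 3.1 to 5.0 in Mafg-null libraries. On the other side Ush1c was 1.3 to 1.5 in control and 0.5 to 1.8 in Mafg-null libraries, Otog was 0.5 to 1.0 and 0.2 to 0.5, and Abcc8 ranged from 1.5 to 52.4 in control alone. Tph1 was not analysed here.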
